A study of Mus musculus with 12 samples.

Results

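The ADAMTS proteases are secreted metalloproteinases that cut proteins of the extracellular matrix. The 10 genes were taken by name, with earlier results of these data known: Adamts1, Adamts2, Adamts4, Adamts5, Adamts7, Adamts9, Adamts10, Adamts12, Adamts15 and Adamts20. Of these, 9 had a row with a single gene symbol among the 19938 genes measured, and Adamts2, which encodes an enzyme that trims procollagen, was not analysed here. RNA came from pools of islets isolated from 8-week-old Rip1Tag2 mice on a C57BL/6 background, and the labels call the tissue early tumor islets. The groups were 6 pools labelled Angiogenic and 6 labelled Non Angiogenic, each on its own Affymetrix mouse gene array. All pools carried the same transgene, in which the insulin promoter drives the SV40 T antigen in beta cells, so no array came from a mouse without the tumor transgene. Islets were isolated with collagenase and a density gradient and were assigned to a group by their appearance. The number of mice and islets behind each pool, and whether the pools are from separate mice, are not stated, so p-values measure only the spread between these pools, which may be technical.

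ADAMTS enzymes have a metalloproteinase domain, a disintegrin-like domain and thrombospondin repeats that hold them in the matrix. They are made as inactive precursors, which furin-like convertases cut, and TIMP3 is their best known tissue inhibitor. Family members differ in what they cleave. Some cut proteoglycans such as versican and aggrecan, some cut cartilage oligomeric matrix protein (COMP), one group trims procollagens, and others act on fibrillin microfibrils or on von Willebrand factor. ADAMTS1 is also known to restrain the growth of blood vessels.

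Of the 9 genes measured, Adamts1, Adamts4, Adamts5, Adamts10 and Adamts12 were higher in angiogenic islets, none was lower, and 4 did not pass the test. The levels are log2 values, and a difference is the mean of angiogenic islets minus that of non angiogenic islets, tested with limma at an adjusted p under 0.05. By the same test 3.55% of all genes measured were higher, and 0.948% lower. The median difference was 0.35 over the 9 genes and -0.02 over all genes. Each of the 5 had all 6 angiogenic arrays above all 6 non angiogenic arrays, which held for 2.85% of all genes. Adamts1, Adamts5, Adamts9 and Adamts12 are also in the signature that the study selected on these same arrays, so their direction here is not independent evidence. Adamts4 and Adamts10 are not in that signature, and Adamts2, which was not analysed here, is in it. Calls here rest on the adjusted p alone, with no limit on the fold difference. Adamts10 (1.27-fold) lies below every ratio listed in the signature, and Adamts4 (1.39985-fold) lies at the lower end of those ratios. Whether size kept Adamts4 and Adamts10 out of the signature was not tested, so their absence does not set them apart from it.

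**Figure D1:**
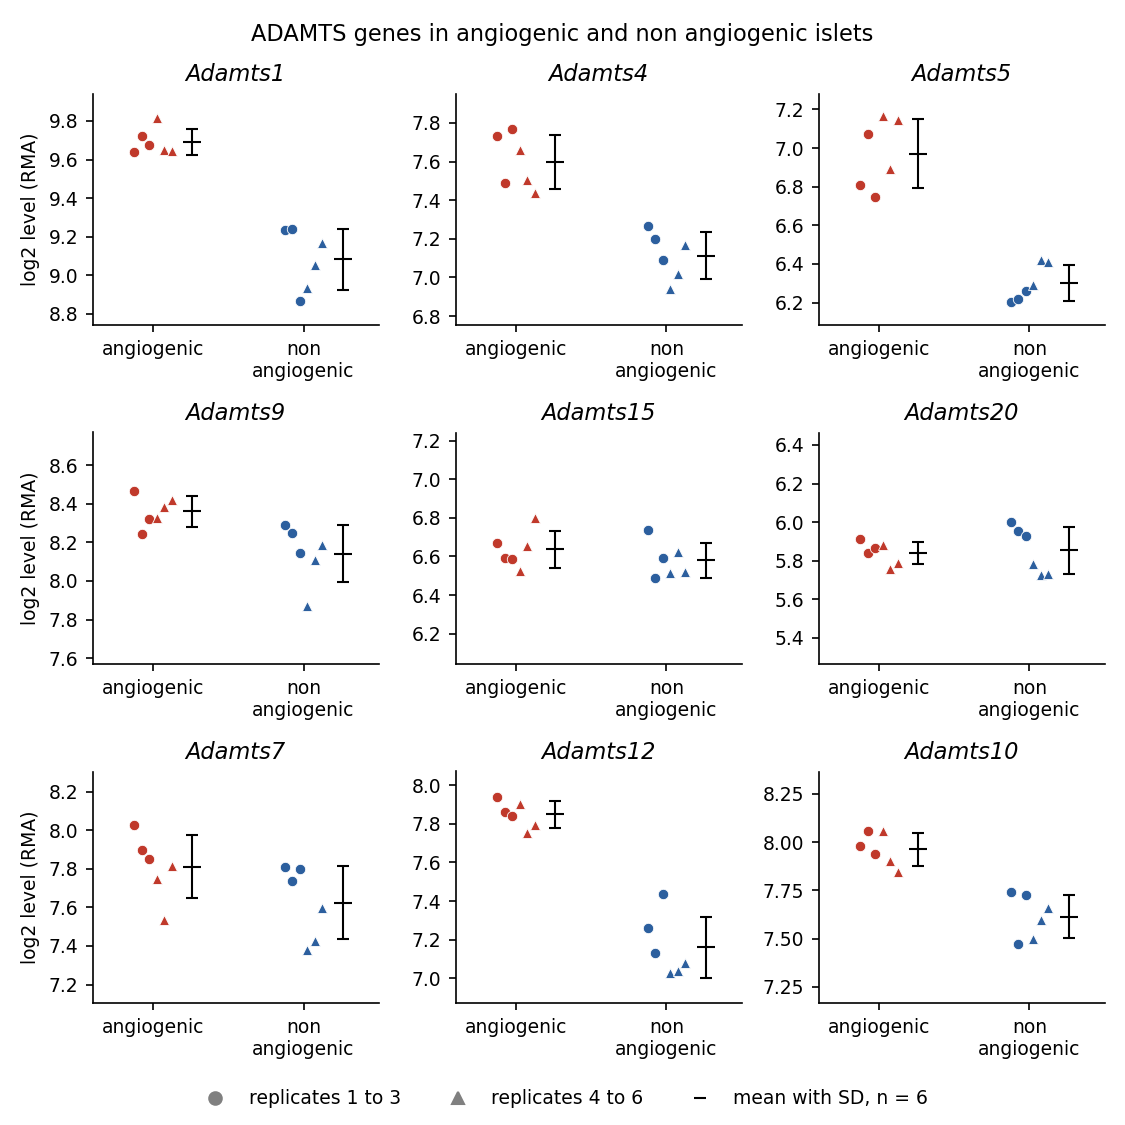
Log2 level (RMA) of each ADAMTS gene in each array, angiogenic islets left and non angiogenic islets right, with circles for replicates 1 to 3, triangles for replicates 4 to 6, and the mean with its SD (n = 6). Each panel covers the same span of the log2 scale, and the groups are apart for Adamts1, Adamts4, Adamts5, Adamts12 and Adamts10 and overlap for Adamts9, Adamts15, Adamts20 and Adamts7.

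Adamts1 encodes a versican- and aggrecan-cleaving protease. Its lowest, median and highest levels were 9.64, 9.66 and 9.81 in angiogenic islets, against 8.87, 9.11 and 9.24 in non angiogenic islets. The groups did not overlap, and the angiogenic arrays lay close together. The level averaged 9.69 ± 0.07 in angiogenic islets and 9.08 ± 0.16 in non angiogenic islets (SD, n = 6 each), a 1.52-fold difference (95% interval 1.38 to 1.69, limma adjusted p = 7.42e-05). Leaving out each array in turn gave log2 differences from 0.56 to 0.64.

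Adamts5, which encodes an aggrecanase that also cuts versican, had levels of 6.74, 6.98 and 7.16 in angiogenic islets (lowest, median and highest), against 6.20, 6.28 and 6.42 in non angiogenic islets. The groups were again apart, and here the angiogenic arrays were the more scattered, with an SD of 0.18 against 0.09 in non angiogenic islets. The log2 difference was 0.67 (SE 0.08, n = 6 each), a 1.59-fold rise (limma adjusted p = 8.80e-05).

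Adamts4, which encodes the other main aggrecanase, had levels of 7.44, 7.58 and 7.77 in angiogenic islets, against 6.94, 7.13 and 7.27 in non angiogenic islets (lowest, median and highest). No array of one group reached the other group. The log2 difference was 0.49 (SE 0.07, n = 6 each, limma adjusted p = 8.32e-04).

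Adamts9 and Adamts20 encode the closest relatives of the nematode protease GON-1 in the family and share its terminal domain, and both can cut versican. The brightest of the transcript clusters of Adamts9, a transcript cluster being a set of probes that the array design assigns to one transcript, had levels of 8.24, 8.35 and 8.47 in angiogenic islets, against 7.87, 8.17 and 8.29 in non angiogenic islets. The highest non angiogenic arrays reached the lowest angiogenic ones. Its log2 difference was 0.22 (SE 0.07, 95% interval 0.07 to 0.36), which did not pass over all genes (limma adjusted p = 0.0946, n = 6 each).

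Adamts20 had levels of 5.76, 5.85 and 5.91 in angiogenic islets, against 5.73, 5.86 and 6.00 in non angiogenic islets (lowest, median and highest). The groups overlapped, and the angiogenic arrays lay inside the range of the non angiogenic ones. The log2 difference was -0.01, with a 95% interval from -0.14 to 0.11 (limma adjusted p = 0.962, n = 6 each). Adamts15, which encodes another versican- and aggrecan-cleaving protease, had levels of 6.52, 6.62 and 6.80 in angiogenic islets, against 6.49, 6.56 and 6.74 in non angiogenic islets. The groups overlapped almost entirely. The log2 difference was 0.06, with a 95% interval from -0.07 to 0.18 (limma adjusted p = 0.755, n = 6 each).

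Adamts7 and Adamts12 encode the pair of proteases that cut COMP and carry a mucin-like stretch. Of the pair, Adamts12 passed the test and Adamts7 did not. Adamts12 had the largest difference of the 9 genes, with levels of 7.75, 7.85 and 7.94 in angiogenic islets, against 7.03, 7.10 and 7.43 in non angiogenic islets. The groups were apart, and the non angiogenic array nearest to the other group was replicate 3. The level averaged 7.85 ± 0.07 in angiogenic islets and 7.16 ± 0.16 in non angiogenic islets (SD, n = 6 each), a 1.61-fold difference (limma adjusted p = 2.49e-05). Without that array the log2 difference was 0.74, the highest value when arrays were left out in turn, and the lowest was 0.66.

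Adamts7 had levels of 7.53, 7.83 and 8.03 in angiogenic islets, against 7.38, 7.67 and 7.81 in non angiogenic islets (lowest, median and highest). The groups overlapped, and in both of them every one of replicates 1 to 3 lay above every one of replicates 4 to 6. The log2 difference was 0.19, with a 95% interval from -0.01 to 0.38 (limma adjusted p = 0.392, n = 6 each). Whether Adamts7 and Adamts12 differ from each other in their response was not tested.

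Adamts10 encodes a protease that binds fibrillin and is mutated in Weill-Marchesani syndrome, a human disorder of short stature and lens defects. Its levels were 7.85, 7.96 and 8.06 in angiogenic islets, against 7.47, 7.63 and 7.74 in non angiogenic islets (lowest, median and highest). The groups did not overlap, but the gap between them was narrow. The log2 difference was 0.35 (SE 0.06), a 1.27-fold rise, the smallest of the 5 that passed (n = 6 each, limma adjusted p = 0.00251).

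The windows before the transcription start of Adamts1 and Adamts12, which were both higher in angiogenic islets, are shown beside those of Adamts9 and Adamts20, which did not pass. The sequences are the 100 bases before the start, from RefSeq on GRCm38.p6, given 5′ to 3′ in the direction of the gene. Of the 10 genes, 5 had such a window, and that of Adamts2, whose level was not analysed here, is not shown. Capitals mark matches to the letters TATAAA, known as the TATA box, or to GGGCGG, the GC box bound by factors of the SP family, on either strand. Adamts1 lies at chr16:85803114-85803213 (minus strand), Adamts12 at chr15:11064673-11064772 (plus strand), Adamts9 at chr6:92943535-92943634 (minus strand) and Adamts20 at chr15:94404351-94404450 (minus strand).
Adamts1: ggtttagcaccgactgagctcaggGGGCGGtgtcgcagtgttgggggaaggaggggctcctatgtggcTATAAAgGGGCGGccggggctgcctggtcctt
Adamts12: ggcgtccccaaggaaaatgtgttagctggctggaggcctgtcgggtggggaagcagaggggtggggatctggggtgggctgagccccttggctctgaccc
Adamts9: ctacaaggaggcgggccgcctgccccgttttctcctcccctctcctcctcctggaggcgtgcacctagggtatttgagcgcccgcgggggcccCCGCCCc
Adamts20: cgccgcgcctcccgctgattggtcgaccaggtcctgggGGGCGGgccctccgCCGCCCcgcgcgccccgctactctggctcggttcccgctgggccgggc

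Adamts12 had no match to any of the motifs searched, so it could share none with Adamts1. Adamts1 held a TATA box beginning 32 bases before its start, and 12.4% of the 32851 windows of 250 bases before a start held TATAAA on either strand. GC boxes were found 3 times in 250 bases of Adamts1, 3 times in Adamts20, once in Adamts9 and not in Adamts12, and 32.7% of all windows held at least 1. Also searched on both strands were TGANTCA (AP-1, in 6.75% of windows), CAGAC (the core of a SMAD site, 42.2%) and CCGGAA (the ETS core, 12% of windows). Adamts20 had CAGAC beginning 202 bases before its start, and no other match to these 3 was found in the 4 windows. No match overlapped another. The share of G and C was 65.6% in the 250 bases of Adamts1, 63.2% in Adamts12, 71.2% in Adamts9 and 76.4% in Adamts20, against a median of 52.4% over all windows. A match is a description of letters and not a binding site.

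The arrays fell into 2 sets, replicates 1 to 3 and replicates 4 to 6, each with 3 arrays of both groups. With group in the model, 36.9% of all genes differed between the sets in either direction (limma adjusted p under 0.05), and 3 of the 9 ADAMTS genes did. The labels do not say what the sets are. The profiling is described as 2 independent experiments, without naming the arrays of each, and if the sets are those experiments, a group holds 3 arrays from each of them, not 6 repeats of one experiment. Adamts7 was lower in replicates 4 to 6 than in replicates 1 to 3, with a log2 difference of -0.27 (limma adjusted p = 0.00255), beside the 0.19 between the groups. Adamts20 also lay lower in replicates 4 to 6, by a log2 difference of -0.14 (limma adjusted p = 0.024), while Adamts5 lay higher there by 0.17 (limma adjusted p = 0.0448).

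**Figure D2:**
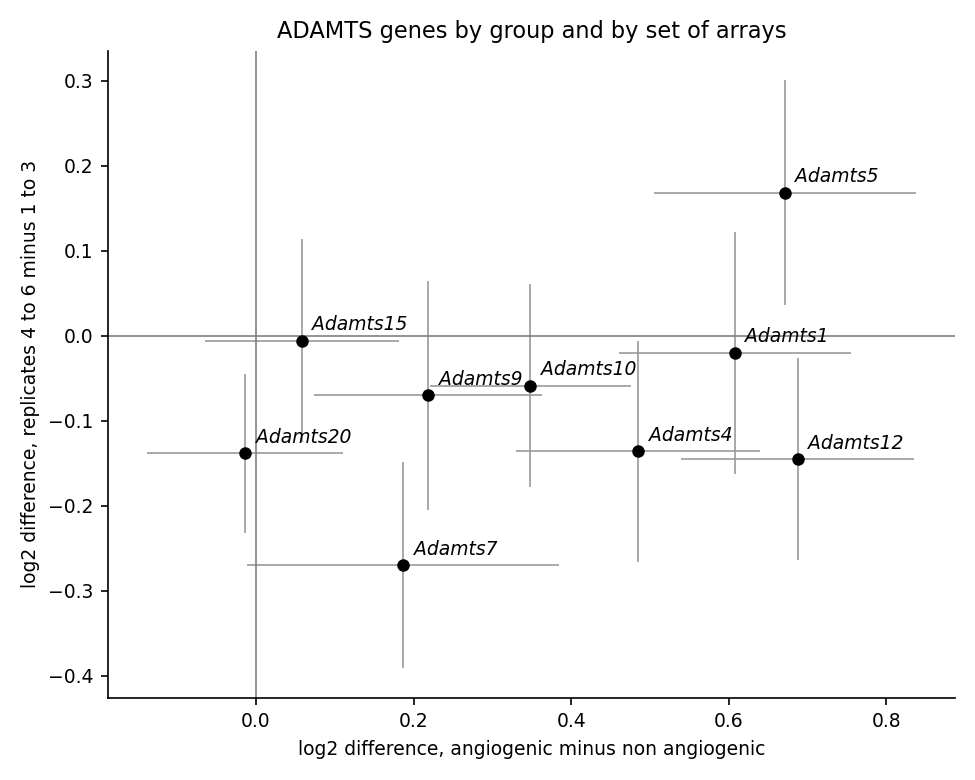
Log2 difference between angiogenic and non angiogenic islets (horizontal axis) and between replicates 4 to 6 and replicates 1 to 3 (vertical axis) for the 9 ADAMTS genes, with 95% intervals from limma as bars. Adamts7 has the lowest value on the vertical axis, -0.27, and Adamts5 the highest, 0.17.

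Within each set the group differences of the 5 genes were close to those over all arrays. The log2 difference of Adamts12 was 0.61 among replicates 1 to 3, against 0.77 among replicates 4 to 6. The same values were 0.56 and 0.65 for Adamts1, 0.65 and 0.69 for Adamts5, 0.48 and 0.49 for Adamts4, and 0.34 and 0.35 for Adamts10. Replicates 1 to 3 alone called 4 of the 9 genes higher (2.37% of all genes), Adamts10 missing the threshold there (limma adjusted p = 0.0711, n = 3 each). Replicates 4 to 6 alone called all 5 (3.11% of all genes). The sign was the same in both sets for 8 of the 9 genes, and the exception was Adamts20, with -0.09 among replicates 1 to 3 and 0.06 among replicates 4 to 6.

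A test of whether the group difference itself differed between the sets called 0 of the 9 genes and 1 gene of all (0.00502%). The lowest unadjusted p-values among the ADAMTS genes were 0.0784 for Adamts20 and 0.105 for Adamts9 (limma, n = 3 in each set and group), so none was under 0.05 before adjustment either. Adamts9 differed between the groups by 0.12 among replicates 1 to 3 and 0.32 among replicates 4 to 6 (log2), and the interval of the gap between them ran from -0.05 to 0.46. With the set as a block, Adamts9 joined the genes called higher (limma adjusted p = 0.043), which made 6 of 9, while 5.88% of all genes were higher in that fit. Adamts7 had an adjusted p of 0.0559 in that fit.

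**Figure D3:**
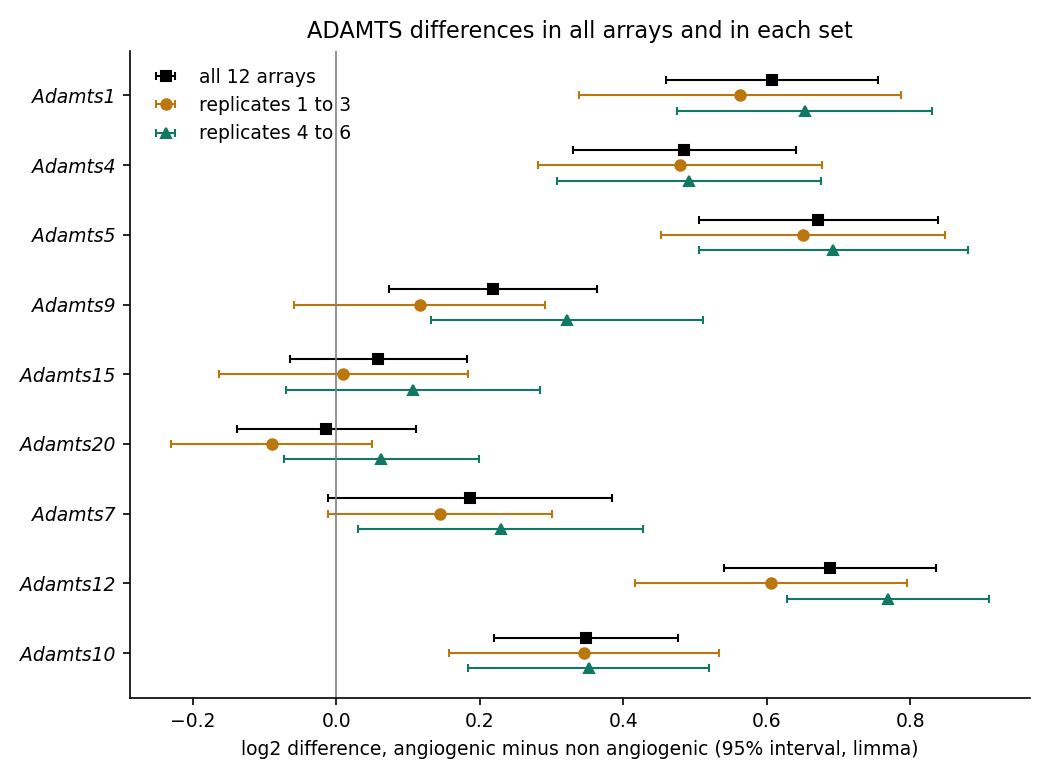
Log2 difference, angiogenic minus non angiogenic islets, of each ADAMTS gene over all 12 arrays (squares), in replicates 1 to 3 (circles) and in replicates 4 to 6 (triangles), with 95% intervals from limma. Adamts1, Adamts4, Adamts5, Adamts12 and Adamts10 lie to the right of 0 in both sets, and Adamts20 changes sign between the sets.

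Adamts9 was represented by 6 transcript clusters, and all of them had a higher mean in angiogenic islets. By the test over all single-symbol clusters, of which 3.32% were higher, 2 of the 6 passed. Cluster 10546432 had levels of 6.83, 7.13 and 7.18 in angiogenic islets, against 6.40, 6.55 and 6.80 in non angiogenic islets (lowest, median and highest). Its groups were just apart, and it had the largest difference of the clusters, 0.49 on the log2 scale (limma adjusted p = 0.00192, n = 6 each). Cluster 10546434 had levels of 7.60, 7.69 and 7.88 in angiogenic islets, against 7.06, 7.32 and 7.56 in non angiogenic islets. Its groups were also apart, with a 1.31-fold difference (limma adjusted p = 0.00564, n = 6 each).

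The other 4 clusters of Adamts9 overlapped between the groups. Cluster 10546454 had a log2 difference of 0.39 (limma adjusted p = 0.0699) and cluster 10546450 one of 0.33 (limma adjusted p = 0.105), both with a wider spread among arrays than the clusters that passed. Cluster 10546452 had the smallest, 0.11 (limma adjusted p = 0.636), and the brightest cluster, 10546430, had 0.22 (limma adjusted p = 0.0999 over clusters). Averaging the clusters gave a log2 difference of 0.32 for the gene (limma adjusted p = 0.0165). The call for Adamts9 thus depended on which cluster stood for it. The set as a block called 5 of the 6, replicates 1 to 3 alone called 1, replicates 4 to 6 alone called 4, and without non angiogenic replicate 1 the count was 4. Differences between the clusters were not tested, and the annotation used does not say which transcripts or exons they cover. Each of the 8 other ADAMTS genes described had 1 cluster.

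**Figure D4:**
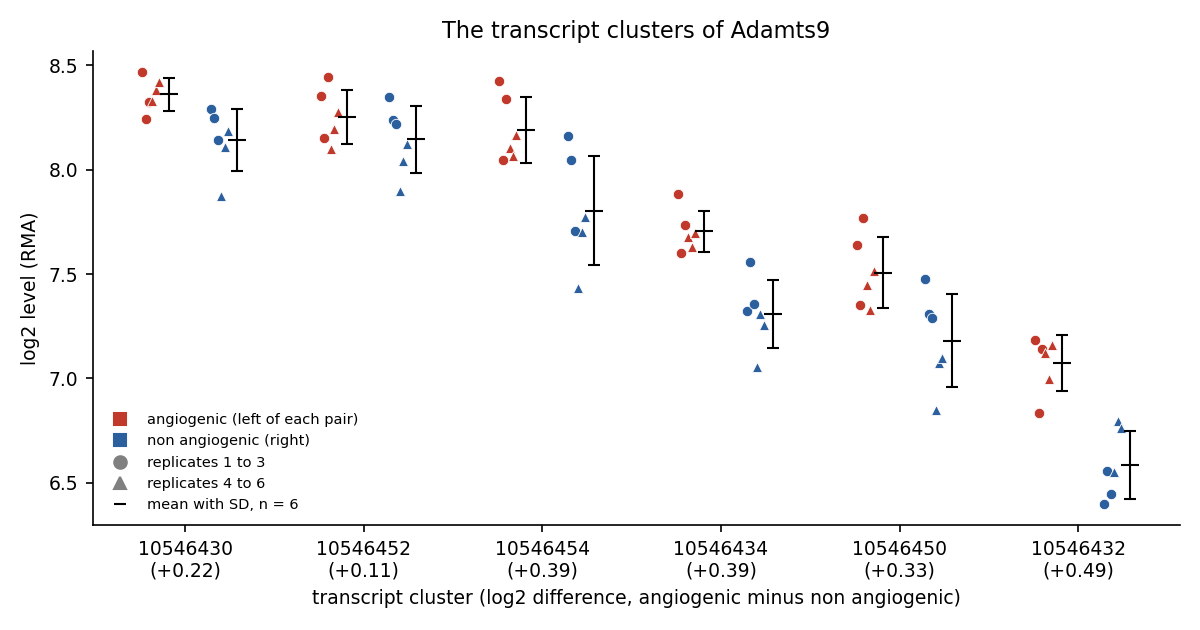
Log2 level (RMA) of the 6 transcript clusters of Adamts9 in each array, with angiogenic islets left and non angiogenic islets right of each pair, circles for replicates 1 to 3, triangles for replicates 4 to 6, and the mean with its SD (n = 6). Levels are not comparable between clusters, and the difference below each cluster runs between 0.11 and 0.49.

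The remaining genes of the family were measured beside these 9. Because the 9 were chosen with earlier results of these data known, their contrast with the others is not independent evidence. Among 9 other ADAMTS genes (Adamts3, Adamts6, Adamts8, Adamts13, Adamts14, Adamts16, Adamts17, Adamts18 and Adamts19), 1 was higher in angiogenic islets, none was lower, and the median difference was -0.03 (log2). The one that passed was Adamts8, a proteoglycan-cleaving relative of Adamts1 also known to restrain vessel growth. It averaged 7.09 ± 0.07 in angiogenic islets and 6.82 ± 0.13 in non angiogenic islets (SD, n = 6 each), a log2 difference of 0.27 (limma adjusted p = 0.0169). It did not pass in replicates 1 to 3 alone (limma adjusted p = 0.236). The largest that did not pass were Adamts18, at -0.18, Adamts6, at -0.13, and Adamts19, at -0.11 (limma adjusted p of 0.476, 0.535 and 0.621). Over the whole family as measured, 6 of 18 genes were higher and 0 lower, against 3.55% and 0.948% of all genes. By role, 4 of the 7 proteoglycan-cleaving members passed, against 0 of 2 measured procollagen-trimming members (Adamts3 and Adamts14). The other procollagen-trimming gene, Adamts2, had no single-symbol row here, and the study's signature lists it as induced in angiogenic islets. Of the COMP-cleaving members 1 of 2 passed, and 1 of 2 fibrillin-associated members, Adamts6 being the one that did not. The von Willebrand factor protease Adamts13 had a difference of 0.01 (limma adjusted p = 0.991).

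ADAMTS-like proteins share the non-catalytic domains and lack the protease. Of 7 measured, 2 were higher in angiogenic islets, against 3.55% of all genes. Adamtsl3 rose by 0.58 on the log2 scale (limma adjusted p = 3.49e-04), at weak mean levels of 5.86 in angiogenic and 5.28 in non angiogenic islets. Adamtsl3 is in the signature selected on these arrays, so its direction is not independent evidence. Adamtsl2, whose product binds fibrillin and a TGF-beta binding protein, rose by 0.34 (limma adjusted p = 0.00202). None was lower, the nearest being Thsd4 at -0.18 (limma adjusted p = 0.203), which was called lower with the set as a block (limma adjusted p = 0.0163).

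Known substrates of ADAMTS enzymes were higher in 12 of 22 measured genes, against 3.55% of all genes, and lower in none. Their median difference was 0.61 (log2). Fbn1 (fibrillin), also on the substrate list, had no single-symbol row here, and the study's signature lists it as induced. Of those 12, 11 are in the signature selected on these arrays, and Col1a1, Col1a2 and Col3a1 are also on the fibroblast marker list, so the count is not independent evidence. The largest was Fn1 (fibronectin), with 11.48 ± 0.17 in angiogenic islets and 9.27 ± 0.35 in non angiogenic islets (SD, n = 6 each), a log2 difference of 2.20 (limma adjusted p = 4.55e-07). Col1a1 and Col1a2, the chains of type I collagen, followed at 1.56 and 1.47, then the small proteoglycans Fmod (fibromodulin) and Bgn (biglycan) at 1.34 and 1.24, and the matricellular gene Thbs2 (thrombospondin) at 1.09. Vcan (versican), the shared substrate of ADAMTS1, ADAMTS4, ADAMTS5, ADAMTS9 and ADAMTS20, was 1.62-fold higher in angiogenic islets (limma adjusted p = 4.95e-04). Acan (aggrecan), from which the aggrecanases take their name, had a log2 difference of 0.02 (limma adjusted p = 0.954). Comp, the substrate that names the ADAMTS7 and ADAMTS12 pair, had one of 0.01 (limma adjusted p = 0.982). Mean levels in angiogenic and non angiogenic islets were 5.80 and 5.78 for Acan, and 6.66 and 6.65 for Comp. Signals are weak at such levels, so a change could be missed. The largest differences that did not pass were Dcn (decorin) at 0.73, Vwf (von Willebrand factor) at 0.40 and Col5a1 at 0.29 (limma adjusted p of 0.0882, 0.052 and 0.0581). Of these, Dcn is in the study's signature. With the set as a block, Dcn, Vwf and Col5a1 passed as well (limma adjusted p of 7.37e-04, 0.0234 and 0.0104). That made 15 of 22 substrates higher, against 5.88% of all genes in that fit. Dcn also passed within each set (limma adjusted p of 0.00457 in replicates 1 to 3 and 0.0417 in replicates 4 to 6). Vcan, Acan and Comp were named for their link to the described enzymes.

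Among 10 genes for inhibitors, activators and clearance of ADAMTS enzymes, 3 passed as higher in angiogenic islets and 0 as lower. The shares over all genes were 3.55% and 0.948%. Timp1, a broad metalloproteinase inhibitor with little action on most ADAMTS enzymes, was 3.61-fold higher (limma adjusted p = 4.40e-06). Timp1 is in the signature selected on these arrays, so its direction is not independent evidence. Lrp1, the endocytic receptor that removes ADAMTS4 and ADAMTS5 from the matrix, was 1.51-fold higher (limma adjusted p = 6.09e-05). Timp2 was 1.35-fold higher (limma adjusted p = 0.00304). Timp3, the main inhibitor of the aggrecanases, had a log2 difference of 0.41 that just missed the threshold (limma adjusted p = 0.0536) and passed with the set as a block (limma adjusted p = 4.55e-04). The convertase genes Pcsk5, at 0.20, and Pcsk6, at -0.13, did not pass (limma adjusted p of 0.117 and 0.221). Pcsk5 passed with the set as a block (limma adjusted p = 0.0174). In that fit 5 of the 10 genes were higher, against 5.88% of all genes.

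**Figure D5:**
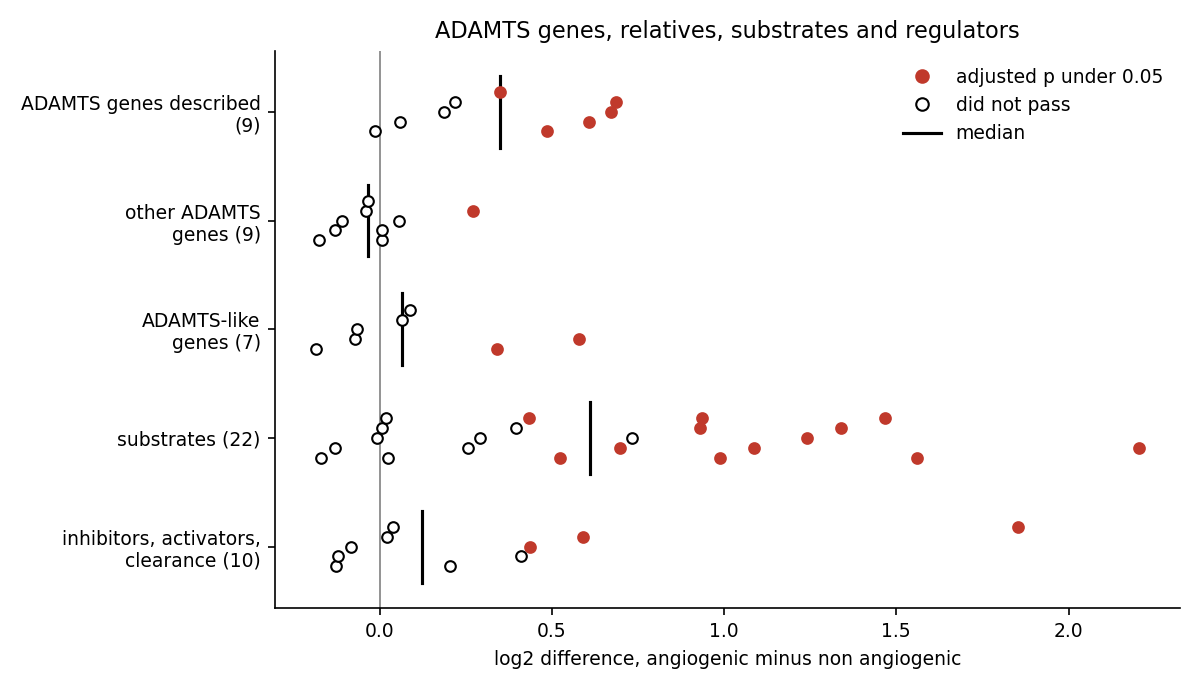
Log2 difference, angiogenic minus non angiogenic islets, of the 9 ADAMTS genes described, 9 other ADAMTS genes, 7 ADAMTS-like genes, 22 substrates and 10 inhibitors, activators and clearance genes, with filled points at a limma adjusted p under 0.05 and a line at each median. The medians are 0.35, -0.03, 0.06, 0.61 and 0.12 from the top, and no filled point lies left of 0.

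Markers of several cell types were also higher in angiogenic islets, beside 3.55% of all genes. Several of these markers, such as Pecam1, Pdgfrb, Csf1r and Col1a1, were reported by the study as higher on these same arrays. The marker counts below are thus not independent evidence. In bulk pools, more cells of a type and more RNA per cell cannot be told apart. Mean log2 levels of the endothelial list were 9.49 to 9.65 in angiogenic islets and 9.05 to 9.21 in non angiogenic islets, with 8 of 10 markers higher. The pericyte list lay at 8.60 to 8.95 in angiogenic islets and 7.90 to 8.08 in non angiogenic islets (9 of 10 higher), the fibroblast list at 9.23 to 9.54 in angiogenic islets and 8.14 to 8.54 in non angiogenic islets (9 of 10), and the macrophage list at 8.28 to 8.65 in angiogenic islets and 7.90 to 8.14 in non angiogenic islets (7 of 10). Their part in the ADAMTS differences was not tested. Beta cell markers, the check of the labelled tissue, lay at 11.72 to 11.88 in angiogenic islets and 11.76 to 12.001 in non angiogenic islets. Of these markers 0 of 7 were called, and all 7 differences were below 0. Over all 19938 genes the median difference was -0.02, and 7987 had a difference above 0. With the set as a block, 2 of the 7, Nkx6-1 and Slc2a2, were lower in angiogenic islets (log2 differences of -0.23 each, limma adjusted p of 0.0179 and 0.0407), as were 2.74% of all genes in that fit. Acinar markers, from exocrine tissue around the islets, ran from 7.76 to 10.89 in angiogenic islets and from 7.61 to 11.73 in non angiogenic islets, with 0 of 7 called, and with their mean as a covariate 5 of the 9 ADAMTS genes and 3.73% of all genes were higher.

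Likeness across arrays was described for the 5 ADAMTS genes that passed, which were called for their difference between the groups. After each set was centred on its own mean, Pearson's r between pairs of them ran from 0.856 to 0.951 over the 12 arrays. The difference between the groups was left in and raises r, and likeness within a group was not tested. By the same measure the genes most like Adamts1 were Arhgap31 (r = 0.981) and Ptprb (r = 0.976), a phosphatase gene of endothelial cells. Those most like Adamts5 were Plxnd1 (r = 0.986), a semaphorin receptor, and the integrin gene Itga1 (r = 0.983). Adamts4 was followed most closely by the collagen gene Col6a2 (r = 0.985) and the laminin-binding integrin gene Itga6 (r = 0.974), Adamts12 by Fbln5 (r = 0.989), an elastic fibre protein, and Gnb4 (r = 0.984), and Adamts10 by the basement membrane proteoglycan gene Agrn (r = 0.979) and Thbs2 (r = 0.977).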

How the data were processed

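Total RNA of 12 islet pools was hybridised to 1-colour arrays. The deposited log2 values per transcript cluster were made by the authors with RMA in Affymetrix Expression Console, per the labels, with versions and scan dates not given in the sources used here. RMA gives the probe values of all arrays 1 distribution and compresses weak signals, so a change in total RNA cannot be seen. Array medians lay between 7.30 and 7.38, and the number of arrays limits the precision.

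Values were used as deposited. Clusters with 1 gene symbol were kept (21789 of 35556, with 1621 of several symbols and 12146 unnamed), and the brightest stood for each of the 999 genes with several, leaving 19938 genes. Groups were compared in R 4.3.3 with limma 3.58.1 (lmFit and eBayes, two-sided, 6 against 6 arrays, no covariate) and p-values were adjusted by Benjamini-Hochberg across the 19938 genes, with calls at 0.05. The fit was tested on simulated data. Alternatives were the methods' t-test, an intensity trend, quantile normalization, array weights, centring on array medians, dropping genes below the median level, cluster means, the replicate number or the set as a block, each set alone, the acinar mean as a covariate and leaving out each array. Set effects, the lists by set and further fits of the Adamts9 clusters were added after seeing the data.

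The members and gene lists were chosen with earlier results of these data known. Genes named are the members, in each list up to 6 past the threshold by size and up to 3 of the largest that did not pass, and the 2 genes most correlated with each member called. Vcan, Acan, Comp and Adamts13 were named for their link to the members, and Nkx6-1 and Slc2a2 after their values were seen. Protein sequences were not used here.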

Additional observations from a re-analysis of the deposited data

How the results depend on the processing

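The same 5 ADAMTS genes were called higher, and 0 lower, in each of the 12 fits that left out 1 array, and 5 were called under the methods' t-test with adjustment, the intensity trend, array weights, both scalings and the acinar covariate. The count was 6 by the methods' t-test without adjustment and 6 with cluster means. Leaving out genes below the median level removed 6 of the 9 ADAMTS genes, among them Adamts4, Adamts5 and Adamts12, which had passed. That left 2 higher, Adamts1 and Adamts10, with 467 genes higher in all, since fewer genes were tested. Ranked from the lowest mean level up, Adamts20 stood at 20.0% of all genes, Adamts15 at 31.4% and Adamts5 at 31.9%, where signals are weak. Over all genes, 708 were higher and 189 lower. The methods' t-test without adjustment gave 1529 and 1385, the set as a block 1172 and 547, and replicates 1 to 3 alone gave 66 lower. With 1 array left out, 553 to 715 were higher and 110 to 178 lower, the 110 being without angiogenic replicate 6. Adamts9 clusters called higher numbered 5 with the set as a block, 1 in replicates 1 to 3, 4 in replicates 4 to 6, and 2 to 4 with 1 array left out.

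Adamts20, near 0, changed sign with quantile normalization (0.0047), in replicates 4 to 6 (0.0624) and with arrays left out (-0.0396 to 0.0159). The gap between the sets in the group difference changed sign with quantile normalization for Adamts4 (-0.0794), Adamts5 (-0.0583) and Adamts10 (-0.0420), and with arrays left out (-0.0752 to 0.0746, -0.0230 to 0.141 and -0.0539 to 0.0927). The causes were not tested. The replicate number as a block called 7 ADAMTS genes higher, adding Adamts7 (limma adjusted p = 0.0451) and Adamts9 (0.0442), with 1058 genes higher and 449 lower. Same-numbered deviations correlated between 0.03 and 0.54, and 2 of 6 numbers had their best match in their own number, so the numbers were not taken to pair the arrays.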
